A study of Mus musculus with 12 samples.

Results

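The genes of the proteasome, the protease complex that degrades ubiquitin-tagged proteins, were taken as every row whose symbol is Psma, Psmb, Psmc, Psmd or Psme followed by a number. This gave 43 of the 48321 genes listed. By textbook role they were 7 genes of the alpha ring, 7 of the constitutive beta ring, 5 of the immunoproteasome (Psmb8, Psmb9, Psmb10, Psme1 and Psme2), 6 ATPases and 3 other proteins of the base, 8 genes of the lid, 3 chaperones of base assembly, 2 other activators and 2 core subunits of restricted tissues. Of these, 41 passed the filter on low values and were tested, among 11998 genes. Each of the 41 had at least 16 reads in every one of the 12 libraries, so none of them passed through 1 group alone.

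The core particle of the proteasome is a barrel in which outer alpha rings form the gate and inner beta rings hold the proteolytic sites. The regulatory particle caps it: its base unfolds substrates with a ring of ATPases and its lid removes ubiquitin before the substrate enters. Interferon-inducible beta subunits can replace the catalytic ones to form the immunoproteasome, which produces peptides for presentation by class I molecules. In brown adipocytes, proteasome activity is known to be needed for protein quality control during thermogenic activation, and the transcription factor encoded by Nfe2l1 is a known activator of proteasome subunit genes there.

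RNA sequencing had been done on brown adipocytes derived from preadipocytes of the interscapular depot of a newborn WT mouse of the C57BL/6J background, immortalized with SV40 large T antigen and differentiated for 8 days. The cells carried either the empty pLEX vector (vector) or pLEX with a truncated, soluble form of semaphorin 4B that mimics the product of ADAM17 cleavage and bears a Flag tag (tSema4B). Each construct was a single puromycin-selected stable line. Cells of either line were kept for 6 h in serum-free medium with albumin and either 2 µM norepinephrine (NE), the agonist of adipocyte beta-adrenergic receptors, or none (unstimulated). Line and treatment together gave 4 groups of 3 libraries each, which are named by both (vector unstimulated or tSema4B NE, for example). The labels call these technical replicates, so the p-values measure the spread between libraries of these lines and do not cover independent transductions. The comparisons asked how the level of each subunit gene differed with tSema4B and with NE.

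The reads counted on genes ranged from 2841941 to 3682634 in vector unstimulated, from 2000780 to 2541747 in tSema4B unstimulated, from 4739777 to 5409583 in vector NE and from 2307190 to 3144946 in tSema4B NE. The vector libraries were therefore the deeper ones in either condition. Sema4b, the transduced gene, was higher in tSema4B cells by a log2 fold change of 1.27 without NE and of 1.65 with NE. Its level was 110800 to 124000 normalized counts in vector unstimulated, 258300 to 316900 in tSema4B unstimulated, 65470 to 81750 in vector NE and 208800 to 270700 in tSema4B NE, so the empty-vector libraries held the transcript too. The totals over all genes were 3086180 to 3140340 normalized counts in vector unstimulated and 3029340 to 3094980 in tSema4B unstimulated. The lines therefore differed in the level of the Sema4b transcript and not in its presence. Of 10 brown adipocyte markers, 9 were lower in tSema4B cells in either condition, and their summed level was 40280 to 45900 normalized counts in vector unstimulated, 6740 to 9508 in tSema4B unstimulated, 53650 to 65240 in vector NE and 10620 to 12000 in tSema4B NE. Fabp4 was the largest part of these sums, with means of 24030, 4091, 40900 and 5518 in the same order of groups. The higher sum in vector NE therefore does not describe the set. With NE in vector cells, 2 of the 10 markers were called higher and 2 lower, against 6.82% and 4.78% of all genes. Of 8 preadipocyte and fibroblast markers, 6 were higher in tSema4B cells without NE and 7 with NE. With reads thinned to the shallowest library, the median log2 fold change between the lines was -0.173 over the tested members and -0.331 over the alpha ring genes without NE (-0.157 and -0.344 unthinned), and -0.173 and -0.381 after NE (-0.181 and -0.395 unthinned). The called members were then 5 lower without NE and 10 lower after NE, against 7 and 13 unthinned. The part of the difference in maturity in the values below was not tested, and in these bulk samples fewer differentiated cells and less RNA per cell cannot be told apart.

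Summed over all 43 genes, proteasome transcripts made up 6635 ± 105 (SD, n = 3) CPM (counts scaled to equal totals of counted reads) in vector unstimulated, 6183 ± 349.9 in tSema4B unstimulated, 7406 ± 245 in vector NE and 6907 ± 264.5 in tSema4B NE. Of the 8 classes with tested genes, the alpha ring had the largest relative distance between the lines in either condition. Its sum was 1433, 1448 and 1410 CPM in the vector unstimulated libraries and 1153, 1033 and 1168 in the tSema4B unstimulated libraries. After NE the sums were 1624, 1801 and 1717 in vector cells and 1362, 1356 and 1293 in tSema4B cells. The ranges of the lines did not overlap in either condition. The base ATPases, in contrast, had sums of 1145 ± 37.9 and 1189 ± 76.05 in vector and tSema4B cells without NE and of 1246 ± 15.3 and 1271 ± 58.5 with NE. The ratio of the alpha ring to the base ATPases, computed within each library, was 1.25 ± 0.025 in vector unstimulated, 0.940 ± 0.0023 in tSema4B unstimulated, 1.375 ± 0.056 in vector NE and 1.05 ± 0.025 in tSema4B NE. Being a ratio within a library, it does not depend on the scaling between libraries. It was chosen after the values were seen and was not tested.

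**Figure D1:**
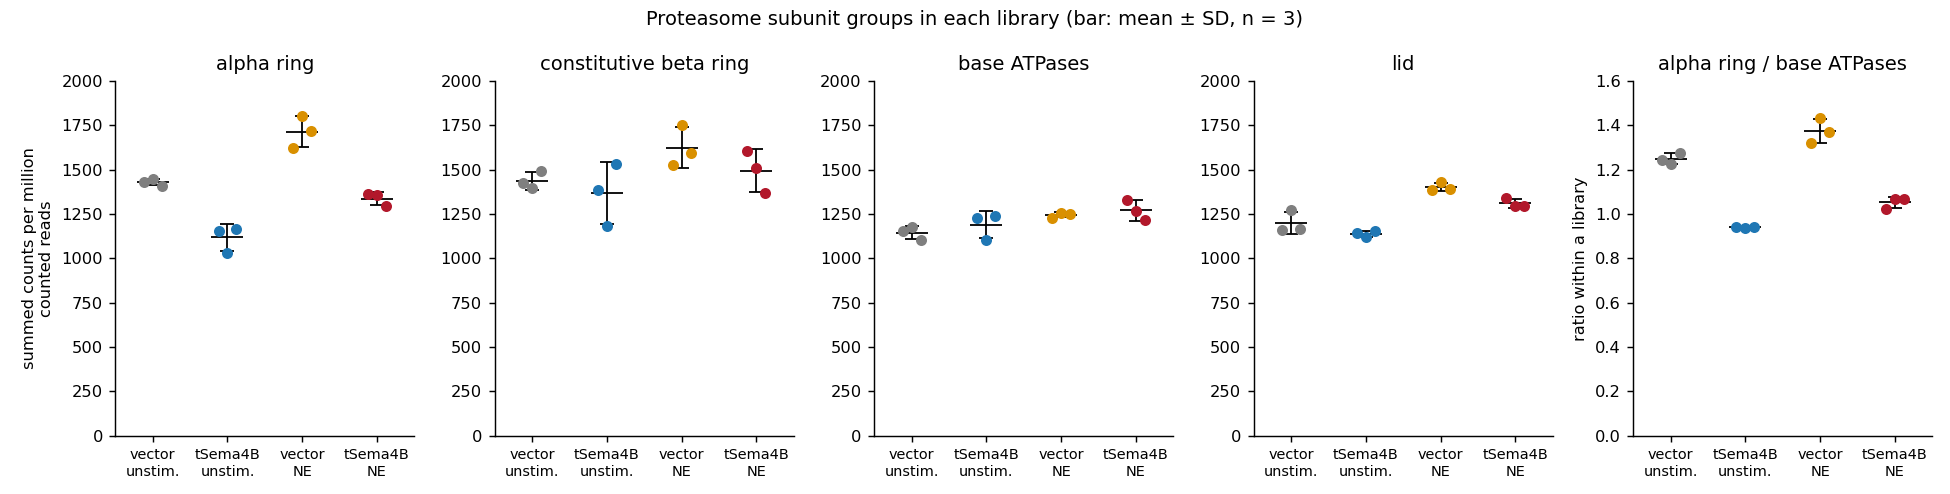
Summed CPM of 4 subunit groups, and the ratio of the alpha ring to the base ATPases, in each of the 12 libraries (points), with the mean and SD of each group of 3 (bars). The tSema4B libraries lie below the vector libraries for the alpha ring and for the ratio in either condition, while the base ATPases of the 2 lines overlap.

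Without NE, tSema4B cells had lower levels of 7 of the 41 subunit genes and higher levels of none. The 7 were the alpha ring genes Psma1, Psma2, Psma4, Psma6 and Psma7, the trypsin-like catalytic subunit gene Psmb7 and Psmd5, which encodes a chaperone of base assembly. Their log2 fold changes lay between -0.34 and -0.445, that is, 20.8% to 26.6% less. The test was limma's moderated test with Benjamini-Hochberg adjustment over all 11998 genes, and genes with an adjusted p no higher than 0.05 are referred to as called. Over all genes 7.39% were called lower and 5.64% higher. Of the 41 members, 13 were lower and 0 higher at an unadjusted p under 0.05, and edgeR and DESeq2 each called 8 lower and 0 higher. Shares of all genes at that cut-off and by those tools are not given, so nothing is read from these counts. The median log2 fold change was -0.16 over the members and -0.34 over the alpha ring, against -0.0025 over all genes. In 15 members all tSema4B libraries lay below all vector libraries, against 15.1% of all genes. No member reached a log2 fold change of 1 in size, which 3.82% of all genes did at the same adjusted p: the members ranged from -0.54 to 0.245. The count of lower members fell to 3 without vector unstimulated replicate 2 and to 4 without vector unstimulated replicate 3.

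After NE, tSema4B cells had lower levels of 13 subunit genes and, again by limma, higher levels of none. Besides the same 5 alpha ring genes and Psmb7, these were the beta ring genes Psmb1, Psmb3 and Psmb6, the base ATPase gene Psmc5, the lid genes Psmd8 and Psmd14 (the deubiquitinase of the lid) and Psme2, a subunit of the activator of the immunoproteasome. Their log2 fold changes lay between -0.295 and -0.73. Over all genes 11.2% were called lower and 9.79% higher. At an unadjusted p under 0.05, 15 members were lower and 0 higher, and edgeR and DESeq2 each called 13 lower and 0 higher. As before, no share of all genes goes with these counts and nothing is read from them. The median was -0.18 over the members and -0.395 over the alpha ring, against -0.010 over all genes, and in 18 members the tSema4B libraries lay below all vector libraries, against 19.8% of all genes. Across the 41 members, the log2 fold change after NE had a Spearman correlation of 0.45 with transcript length (Pearson 0.34), so shorter transcripts tended to have lower values. Without NE these correlations were 0.16 and -0.077. What part transcript length has in the differences was not tested. The members ranged from -0.73 to 0.16, so that again no member reached 1 in size, against 5.76% of all genes. Rescaling the libraries to the same total raised the median of all genes by 0.0935, turned the split of all genes called from 1175 higher and 1342 lower to 1651 higher and 1030 lower, and left 7 members lower and 1, Psmd2, higher. Under quantile normalization 8 were lower and Psmd2 was higher. The count of lower members fell to 8 without vector NE replicate 1, 6 without vector NE replicate 2, 8 without vector NE replicate 3, 7 without tSema4B NE replicate 2 and 7 without tSema4B NE replicate 3.

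The comparisons of the lines without and with NE share no library. Psma1, Psma2, Psma4, Psma6, Psma7 and Psmb7 were lower in both, which is 85.7% of the 7 members called without NE and 46.2% of the 13 called with it. Over all genes, 591 were called lower in both, or 66.6% of those called lower without NE and 44% of those called lower with it. Whether the difference between the lines itself changed with NE was tested by the interaction term, which called 0 of the 41 members by limma, 0 by edgeR and 0 by DESeq2, and 0.025% of all genes. At an unadjusted p under 0.05, 2 members had a negative interaction (Psmd7 and Psmc5) and 0 a positive one, and nothing is read from these counts. As the interaction called no member, a call in 1 condition and not in the other is no evidence that the conditions differ.

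**Figure D2:**
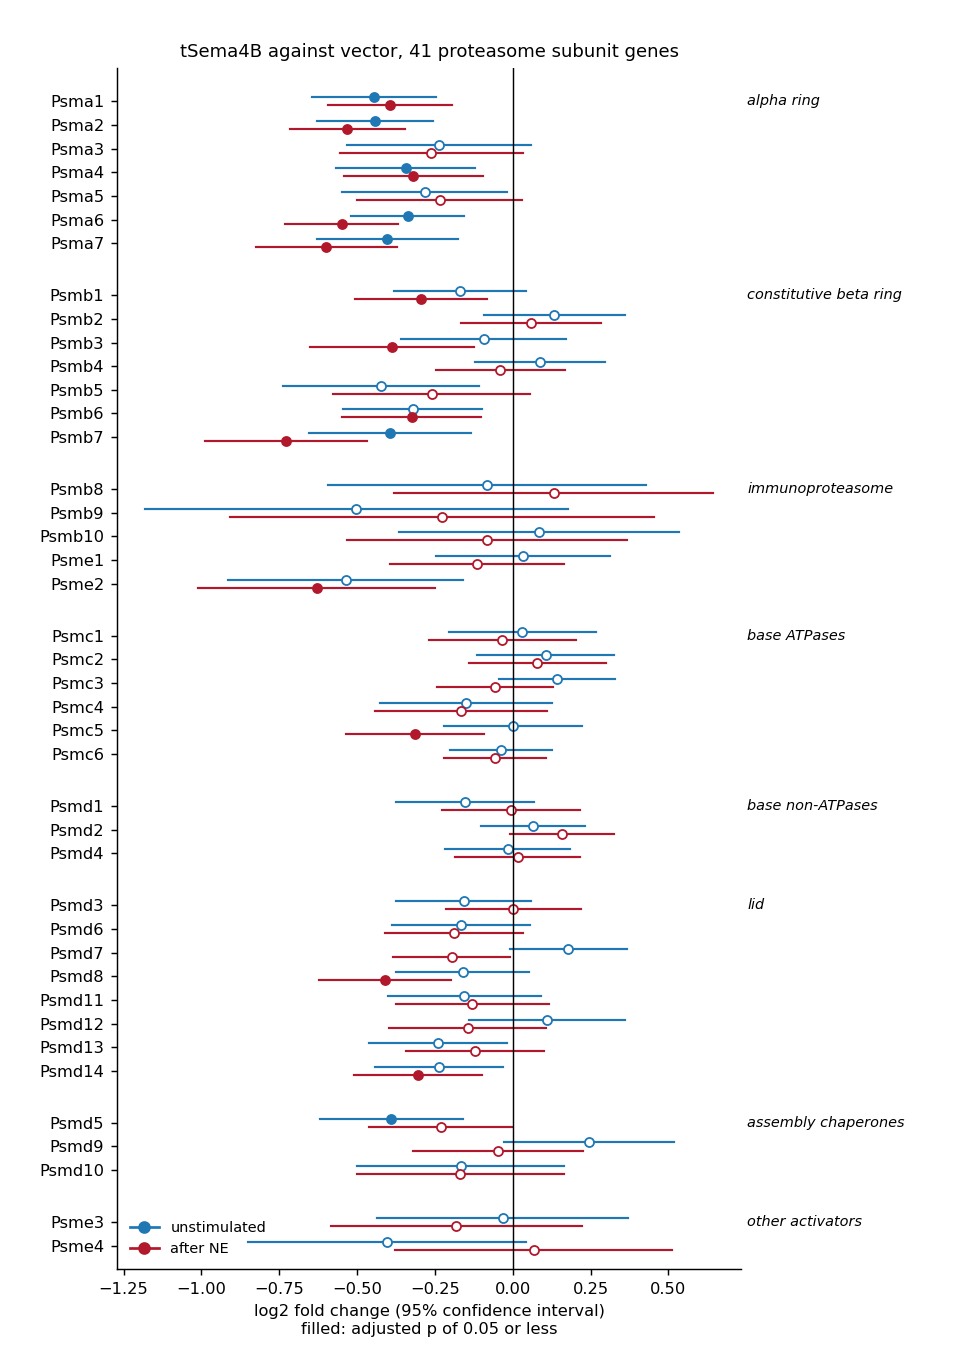
Log2 fold change of tSema4B against vector for the 41 tested subunit genes, without NE (blue) and after NE (red), with 95% confidence intervals from the limma fit (n = 3 per group). Filled points mark called genes, and they lie left of 0, most densely in the alpha ring.

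The alpha ring genes encode the outer rings of the core particle. All 7 had negative log2 fold changes in tSema4B cells in either condition, and 5 of the 7 were called in each. Over all genes 7.39% were called lower without NE and 11.2% with NE, and the median log2 fold changes were -0.0025 and -0.010. Psma1 was measured at 999, 1059 and 971.5 normalized counts in vector unstimulated, 776, 633 and 828 in tSema4B unstimulated, 1172, 1281 and 1317 in vector NE, and 919, 970.5 and 975.1 in tSema4B NE. The tSema4B libraries lay below the vector libraries in either condition. The log2 fold change was -0.445 ± 0.097 (SE, adjusted p 0.0028 by limma) without NE and -0.395 ± 0.097 (adjusted p 0.0053) with NE.

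Psma2 was at 919, 866 and 845 normalized counts in vector unstimulated against 670, 592.5 and 675 in tSema4B unstimulated. After NE it was at 1001, 1127 and 1122 in vector cells and at 737, 749 and 758 in tSema4B cells. Neither pair of groups overlapped. Psma2 fell by 0.44 ± 0.089 on the log2 scale (adjusted p 0.0015 by limma) and, after NE, by 0.53 ± 0.089 (adjusted p 0.00017). Psma7 was at 577, 657 and 675 normalized counts in vector unstimulated, 502, 425 and 517.5 in tSema4B unstimulated, 777, 972 and 810 in vector NE, and 588, 542 and 552 in tSema4B NE. The groups were again apart in either condition, by -0.40 ± 0.11 (adjusted p 0.016) and -0.60 ± 0.11 (adjusted p 0.00042). Without NE, the call of Psma7 was lost without vector unstimulated replicate 2 (adjusted p 0.066), without vector unstimulated replicate 3 (0.068) and without tSema4B unstimulated replicate 2 (0.084).

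Psma6 fell by 0.34 on the log2 scale without NE (adjusted p 0.012 by limma) and by 0.55 with NE (adjusted p 9.35e-05). Its call without NE was lost without vector unstimulated replicate 2 (adjusted p 0.052). Psma4 fell by 0.34 (adjusted p 0.036) and by 0.32 (adjusted p 0.037). Its call without NE was lost without vector unstimulated replicate 2 (0.117), vector unstimulated replicate 3 (0.122), tSema4B unstimulated replicate 1 (0.094) or tSema4B unstimulated replicate 3 (0.115). Its call with NE was lost without vector NE replicate 1 (0.112), replicate 2 (0.106) or replicate 3 (0.060), or tSema4B NE replicate 2 (0.065) or replicate 3 (0.162). Psma3 and Psma5 were not called: Psma3 had -0.24 ± 0.14 and -0.26 ± 0.14, and Psma5 -0.28 ± 0.13 and -0.23 ± 0.13. All tSema4B libraries lay below all vector libraries for Psma5 in either condition, and overlapped with them for Psma3. Of the transcript of Psma3, 20.6% of 100-base stretches are shared with Gm13835, and of that of Psma5, 27.5% with the copies Gm8394 and Gm12989, so reads of these genes could be split between copies.

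**Figure D3:**
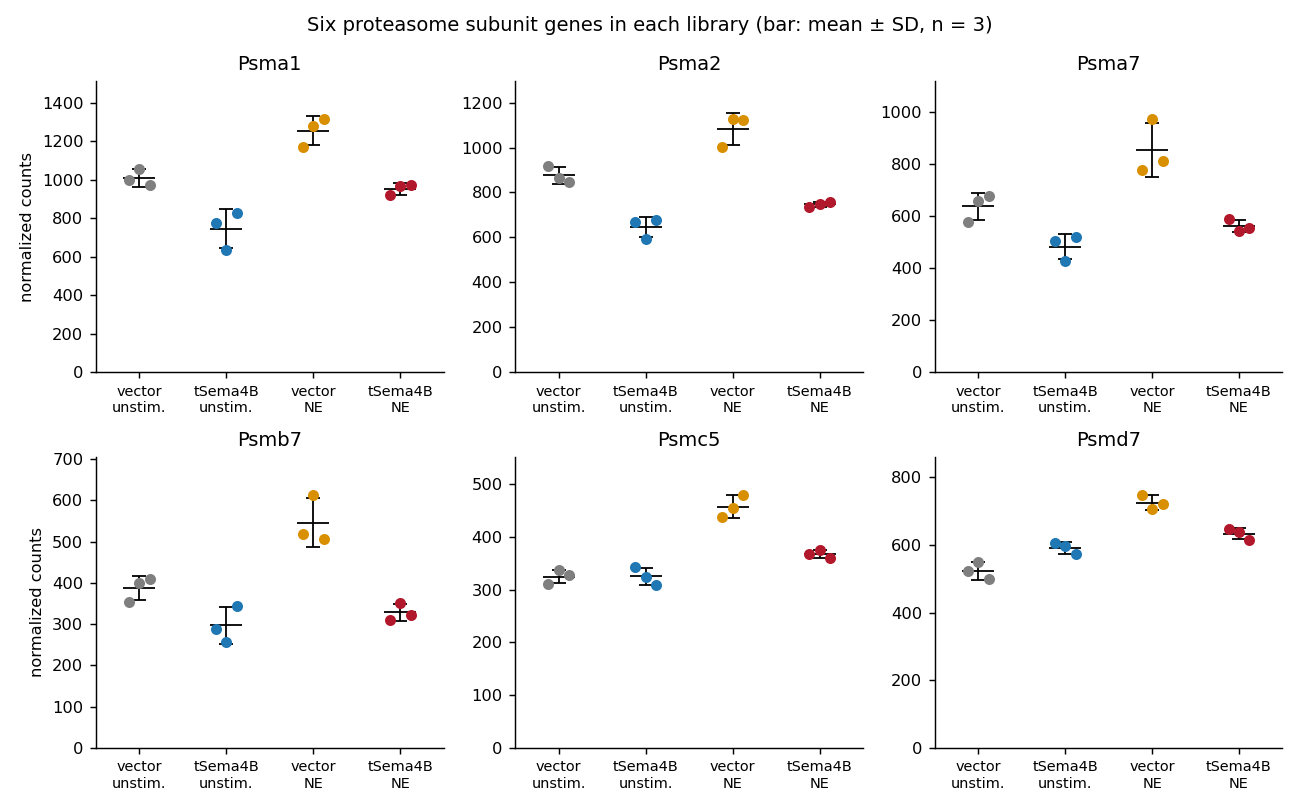
Normalized counts of Psma1, Psma2, Psma7, Psmb7, Psmc5 and Psmd7 in each of the 12 libraries (points), with the mean and SD of each group of 3 (bars), on axes that start at 0. The alpha ring genes and Psmb7 are lower in the tSema4B libraries in either condition, the lines overlap for Psmc5 without NE and lie apart after NE, and Psmd7 is above the vector libraries without NE and below them after NE.

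The sequence upstream of these genes was read to see what the members that were lower together have in common. RefSeq promoter windows on GRCm38.p6 were matched by symbol for 36 members. Psmb1, Psmb2, Psmb7, Psma8, Psmc3, Psmd3 and Psmd7 had no entry. In the 250 bases before the start, on both strands, the box CCAAT was present in 14 of 36 members (38.9%) and in 37.5% of 27025 genes. Psma6, Psmc2 and Psme2 have 2 windows each, and a gene was counted when any of its windows held the box. It was in 5 of the 7 alpha ring genes (Psma1, Psma2, Psma3, Psma6 and Psma7), of which 4 were among those called lower and 1, Psma3, was not, and it was not found in Psma4 or Psma5. Psma6 held it in 1 of its 2 windows. The windows of the 3 alpha ring genes described in full above are shown 5′ to 3′ on the strand of the gene, in lower case with CCAAT or its reverse complement ATTGG in capitals.
Psma1 promoter, chr7:114276117-114276366, minus strand: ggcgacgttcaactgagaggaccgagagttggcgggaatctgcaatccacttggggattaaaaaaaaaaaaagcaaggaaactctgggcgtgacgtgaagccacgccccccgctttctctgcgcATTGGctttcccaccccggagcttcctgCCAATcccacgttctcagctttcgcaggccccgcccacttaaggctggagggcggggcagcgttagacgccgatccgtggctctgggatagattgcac
Psma2 promoter, chr13:14612992-14613241, plus strand: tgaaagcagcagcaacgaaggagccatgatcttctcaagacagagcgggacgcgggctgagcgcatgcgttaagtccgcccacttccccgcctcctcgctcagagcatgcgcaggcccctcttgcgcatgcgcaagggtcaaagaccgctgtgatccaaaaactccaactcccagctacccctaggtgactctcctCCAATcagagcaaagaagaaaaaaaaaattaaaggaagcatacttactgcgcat
Psma7 promoter, chr2:180042465-180042714, minus strand: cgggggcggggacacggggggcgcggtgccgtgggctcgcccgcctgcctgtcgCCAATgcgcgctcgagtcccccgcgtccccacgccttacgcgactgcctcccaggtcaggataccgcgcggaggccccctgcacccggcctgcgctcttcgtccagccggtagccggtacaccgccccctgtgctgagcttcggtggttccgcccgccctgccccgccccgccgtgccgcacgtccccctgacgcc
Psma1 lies at chr7:114264606-114276118 on the minus strand, Psma2 at chr13:14613240-14674236 on the plus strand and Psma7 at chr2:180036374-180042433 on the minus strand (GRCm38, GENCODE M21). Psma1 holds the box on both strands, 126 to 122 and 98 to 94 bases before the start, Psma2 holds 1 at 54 to 50 bases, and Psma7 holds 1 at 196 to 192 bases. A match is a description of the letters only.

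In the beta ring, Psmb5, Psmb6 and Psmb7 encode the chymotrypsin-like, caspase-like and trypsin-like sites, and Psmb1 to Psmb4 structural subunits. Psmb7 had the lowest fold change of any member after NE. It was at 354, 400 and 410 normalized counts in vector unstimulated and 288, 257 and 345 in tSema4B unstimulated, and at 519, 614 and 506 in vector NE and 311, 352 and 322 in tSema4B NE. The groups did not overlap in either condition, and after NE every tSema4B library was below every unstimulated vector library too. The log2 fold change was -0.39 ± 0.13 (adjusted p 0.041 by limma) without NE and -0.73 ± 0.13 (adjusted p 0.00023) with NE, with an interaction of -0.335 ± 0.18 that was not called (adjusted p 0.54). Without NE the call was lost without vector unstimulated replicate 2 (adjusted p 0.13), vector unstimulated replicate 3 (0.13), tSema4B unstimulated replicate 1 (0.098) or tSema4B unstimulated replicate 2 (0.17). Psmb7 lies at chr2:38588036-38644087 (GRCm38, minus strand) and shares 405 exon bases with Nek6 on the opposite strand. Whether reads were counted by strand is not given in the sources used here, so reads of these genes cannot be told apart there.

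Psmb6 was at 714.5, 652 and 786 normalized counts in vector unstimulated against 578, 534 and 608 in tSema4B unstimulated, and at 685, 841 and 761 against 615.5, 663 and 547 after NE. The lines were apart in either condition by -0.32 ± 0.11. After NE this was called (adjusted p 0.035 by limma) and without NE it was just above the threshold (adjusted p 0.051), where edgeR, DESeq2 and 4 other alternatives called it, among them leaving out vector unstimulated replicate 2 (0.045). The call after NE was lost without vector NE replicate 2 (0.169), vector NE replicate 3 (0.0896), tSema4B NE replicate 1 (0.055) or tSema4B NE replicate 3 (0.150). Psmb5 was at 299, 245 and 242 normalized counts in vector unstimulated, 211, 150 and 230 in tSema4B unstimulated, 302, 297.5 and 349 in vector NE, and 272, 269 and 248 in tSema4B NE. The lines were apart in either condition, with log2 fold changes of -0.42 ± 0.15 (adjusted p 0.07) and -0.26 ± 0.15 (adjusted p 0.24), neither called. Leaving out tSema4B unstimulated replicate 3 gave Psmb5 an adjusted p of 0.029. Of the transcript of Psmb5, 24.9% of 100-base stretches are shared with other genes, mainly Gm3375, so its reads could be split between copies.

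Of the structural subunits after NE, Psmb1 fell by 0.295 on the log2 scale (adjusted p 0.043 by limma) and Psmb3 by 0.39 (adjusted p 0.033), and Psmb2 and Psmb4 had 0.059 ± 0.11 and -0.040 ± 0.10. Differences between these genes were not tested. Without NE none of these 4 was called, with values from -0.17 for Psmb1 to 0.13 for Psmb2. The call of Psmb1 after NE was lost without vector NE replicate 1 (0.066), vector NE replicate 2 (0.210), tSema4B NE replicate 2 (0.159) or tSema4B NE replicate 3 (0.074). That of Psmb3 was lost without any 1 of the 6 libraries but tSema4B NE replicate 1 (adjusted p-values from 0.068 to 0.121). Of the transcript of Psmb3, 17.99% of 100-base stretches are shared with the copies AC114990.1 and Gm4950.

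Psmb5 and Psmb6 were the core subunit genes whose upstream window held the antioxidant response element, written TGACNNNGC, to which the factors of Nfe2l1 and Nfe2l2 are known to bind. The element was found in 5 of 36 members (Psmb5, Psmb6, Psmc6, Psmd9 and Psmd12), or 13.9%, and in 11.5% of all genes. The windows of the catalytic subunit genes are shown as above, with the element in capitals, 47 to 39 bases before the start in Psmb5 and 9 to 1 bases before it in Psmb6.
Psmb5 promoter, chr14:54617996-54618245, minus strand: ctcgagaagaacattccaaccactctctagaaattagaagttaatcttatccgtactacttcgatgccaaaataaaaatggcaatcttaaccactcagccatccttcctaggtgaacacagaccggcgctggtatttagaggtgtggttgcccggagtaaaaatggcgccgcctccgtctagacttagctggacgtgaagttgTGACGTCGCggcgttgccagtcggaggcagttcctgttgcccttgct
Psmb6 promoter, chr11:70525107-70525356, plus strand: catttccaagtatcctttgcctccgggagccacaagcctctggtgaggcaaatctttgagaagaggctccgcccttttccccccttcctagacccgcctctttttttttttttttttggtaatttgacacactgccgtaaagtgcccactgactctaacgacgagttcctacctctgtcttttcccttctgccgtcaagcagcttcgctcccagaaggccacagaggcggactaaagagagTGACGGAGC

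The immunoproteasome genes were the lower ones of each catalytic pair in these cells, and none was called between the lines except Psme2 after NE. Over all genes 7.39% were called lower without NE and 11.2% after NE, and nothing is read from the counts of these 5 genes. On the scale of normalized counts per kb of transcript, Psmb8 was at 68.0 ± 19.9 (SD, n = 3) in vector unstimulated, where its constitutive counterpart Psmb5 was at 291 ± 35.6. It made up 19.0% ± 5.6 of the pair in vector unstimulated, 22.8% ± 5.2 in tSema4B unstimulated, 12.1% ± 2.5 in vector NE and 15.3% ± 2.3 in tSema4B NE. The share of Psmb10 in its pair with Psmb7 was 16.97% ± 2.6, 22.2% ± 3.4, 9.56% ± 1.9 and 14.1% ± 1.1 in the same order of groups. The share of Psmb9 in its pair with Psmb6 was smaller, at 5.28% ± 0.98, 4.70% ± 1.2, 3.13% ± 0.39 and 3.43% ± 1.1. In each pair and each group the constitutive gene was the higher by level per kb.

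**Figure D4:**
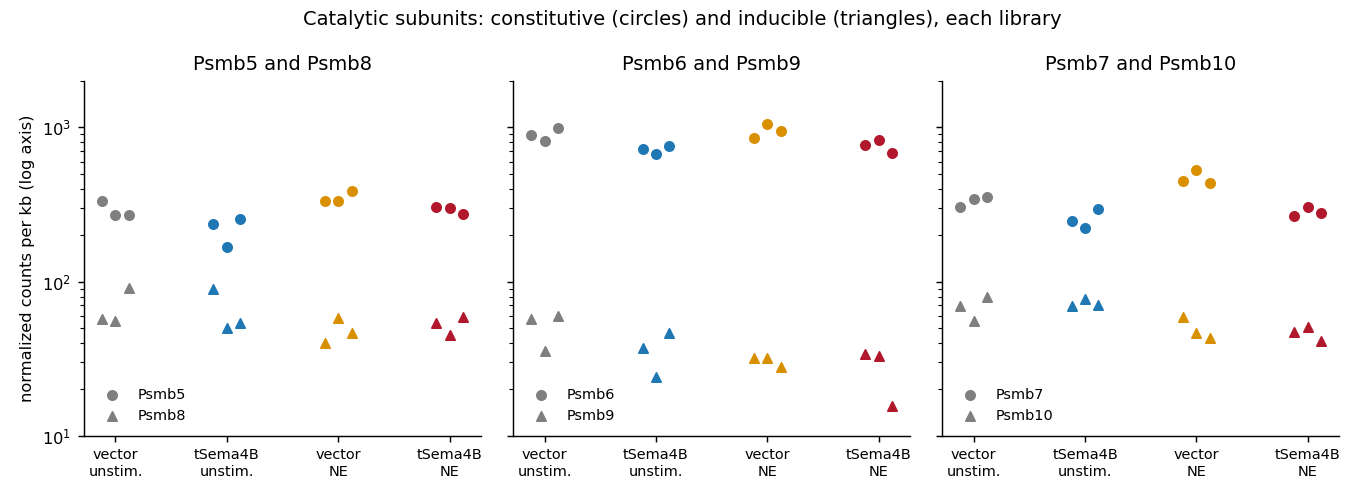
Normalized counts per kb of transcript (log axis) of the constitutive catalytic genes (circles) and their inducible counterparts (triangles) in each of the 12 libraries. In every library the circles lie above the triangles, and Psmb9 has the lowest level of the 6 genes.

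Psmb8 was at 93.4, 90.8 and 148 normalized counts in vector unstimulated, 147, 82.0 and 87.6 in tSema4B unstimulated, 65.2, 94.8 and 75.95 in vector NE, and 87.9, 72.9 and 96.5 in tSema4B NE. Psmb9 was at 77.1, 47.9 and 80.6, at 50.1, 32.5 and 63.0, at 43, 43.3 and 38.0, and at 46.1, 44.5 and 21.1 in the same order. Psmb10 was at 91.2, 73.15 and 105, at 90.6, 100.5 and 91.7, at 77.3, 61.05 and 56.3, and at 62.2, 66.3 and 54.2. The lines overlapped for all 3 genes in either condition, with log2 fold changes of -0.084 ± 0.25, -0.50 ± 0.33 and 0.086 ± 0.22 without NE and of 0.13 ± 0.25, -0.23 ± 0.33 and -0.082 ± 0.22 with NE. The intervals were wide, from -1.18 to 0.18 for Psmb9 without NE, and the 3 genes had 16 to 160 reads per library. Psmb8 shares 498 exon bases with Gm20496 and Psmb9 212 with Tap1, each on the opposite strand. With the strand setting not given, reads there cannot be told apart.

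Psme1 and Psme2 encode the subunits of the activator of the immunoproteasome. Psme1 was at 287, 249.7 and 349.6 normalized counts in vector unstimulated, 323, 300.1 and 277 in tSema4B unstimulated, 249, 286 and 264 in vector NE, and 256, 229 and 252 in tSema4B NE, and the lines overlapped. Psme2 was at 198, 171 and 152.5 normalized counts in vector unstimulated against 149, 97.45 and 115 in tSema4B unstimulated, and at 177, 229 and 194.5 in vector NE against 152, 117 and 119 in tSema4B NE. The lines were apart in either condition, by -0.54 ± 0.18 (adjusted p 0.055 by limma) and -0.63 ± 0.18 (adjusted p 0.016). The call after NE was lost without vector NE replicate 2 (adjusted p 0.094), tSema4B NE replicate 2 (0.060) or tSema4B NE replicate 3 (0.055), and without NE a call was gained without tSema4B unstimulated replicate 1 (0.020). Of the 100-base stretches of the transcript of Psme2, 44.5% are shared with Psme2b, a copy on chromosome 11. Psme2b was lower after NE too, by 0.76 on the log2 scale (adjusted p 8e-04). With the counts of both copies summed before the fit, the log2 fold change was -0.42 without NE (adjusted p 0.034) and -0.71 after NE (adjusted p 0.00045). How much of the change belongs to which copy was not tested.

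The leukocyte markers Ptprc, Adgre1 and Cd3e were at 0 in all 12 libraries, and the sum of 8 leukocyte markers was 3.36 to 7.60 normalized counts in vector unstimulated, 0 to 5.48 in tSema4B unstimulated, 13.4 to 23.6 in vector NE and 9.65 to 24.6 in tSema4B NE. Csf1r, the 1 leukocyte marker that was tested, was called higher after NE in either line. Its log2 fold change was 2.43 in vector cells (adjusted p 0.029 by limma) and 3.00 in tSema4B cells (adjusted p 0.012). Its mean was 1.37 normalized counts in vector unstimulated, 1.31 in tSema4B unstimulated, 11.5 in vector NE and 15.8 in tSema4B NE, with at most 22 reads in a library. Of the upstream windows of the 5 genes, that of Psmb8 held the interferon gamma element TTCNNNGAA, which was found in no other member and in 8.13% of all genes. The interferon-stimulated response element was found in none of the 5, in 3 of all 36 members (Psmb3, Psmd4 and Psmd9) and in 3.46% of all genes.

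The base holds 6 ATPases, which unfold the substrate. Without NE none of them was called between the lines, their median was 0.016, and the values ran from -0.15 for Psmc4 to 0.14 for Psmc3. After NE the median was -0.057 and Psmc5 alone was called. Over all genes 7.39% were called lower without NE and 11.2% after NE, and nothing is read from these counts of 6 genes. Psmc5 was at 311, 336 and 327 normalized counts in vector unstimulated and 342, 323 and 309 in tSema4B unstimulated, and at 437, 455 and 480 in vector NE against 368, 375 and 361 in tSema4B NE. The lines overlapped without NE, with a log2 fold change of 0.0012 ± 0.11, and were apart after NE, with -0.31 ± 0.11 (adjusted p 0.040 by limma). That call was lost without any 1 of the 6 libraries (adjusted p-values from 0.064 to 0.15), and the interaction, -0.31 ± 0.15, was not called (adjusted p 0.48). Of the other base proteins, the scaffolds Psmd1 and Psmd2 and the ubiquitin receptor Psmd4, none was called between the lines, with values from -0.15 to 0.16.

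Of the 8 lid genes, Psmd8 and Psmd14 were called lower after NE and none without NE. Over all genes 11.2% were called lower after NE and 7.39% without NE, and nothing is read from these counts of 8 genes. Psmd8 fell by 0.41 on the log2 scale (adjusted p 0.0061 by limma), from 580 ± 37.3 (SD, n = 3) in vector to 436 ± 27.15 in tSema4B normalized counts, and stayed called under each of 18 alternatives. Psmd14 fell by 0.30 (adjusted p 0.032), from 719 ± 29.2 to 584 ± 52.4, a call lost without vector NE replicate 1 (0.053), replicate 2 (0.114) or replicate 3 (0.085), or tSema4B NE replicate 2 (0.149). Psmd7, the structural partner of Psmd14, is shown in full because its tSema4B libraries lay on opposite sides of the vector libraries in the 2 conditions, and so was chosen after its values were seen. It was at 522, 548 and 498 normalized counts in vector unstimulated, 605.5, 596 and 572 in tSema4B unstimulated, 748.5, 705 and 722 in vector NE, and 647, 638 and 614 in tSema4B NE. The tSema4B libraries were above without NE and below after NE. The differences of 0.18 ± 0.091 (adjusted p 0.22) and -0.195 ± 0.091 (adjusted p 0.135) were not called, and the interaction of -0.37 ± 0.13 had an unadjusted p of 0.0081 and an adjusted p of 0.29 by limma. The remaining lid genes, Psmd3, Psmd6, Psmd11, Psmd12 and Psmd13, had values from -0.24 to 0.11 without NE and from -0.19 to 0.0014 with NE.

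Among the chaperones of base assembly, Psmd5 was at 438 ± 25.8 (SD, n = 3) normalized counts in vector unstimulated and 334 ± 9.20 in tSema4B unstimulated. The lines did not overlap and differed by -0.39 ± 0.11 (adjusted p 0.021 by limma), a call lost without vector unstimulated replicate 1 (0.059), vector unstimulated replicate 2 (0.099) or tSema4B unstimulated replicate 1 (0.062). After NE it was at 373 ± 28.5 against 317 ± 19.2 (SD, n = 3), with -0.23 ± 0.11 (adjusted p 0.15). Psmd9 had 0.245 ± 0.13 without NE and -0.046 ± 0.13 with NE, and shares 1849 exon bases with Gm26745 on the opposite strand. Psmd10 had -0.17 ± 0.16 in either condition. Psme3 and Psme4, which encode activators that open the core without ubiquitin, were not called between the lines, with -0.033 ± 0.19 and -0.40 ± 0.21 without NE and -0.18 ± 0.19 and 0.067 ± 0.21 with NE. Without NE, Psme4 gained a call when tSema4B unstimulated replicate 3 was left out (log2 fold change -0.65, adjusted p 0.0497 by limma). Psma8, the alpha subunit of germ cells, was at 0 in all 12 libraries, and Psmb11, the catalytic subunit of the thymus, had 1 read in 1 library, tSema4B NE replicate 3.

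NE itself was followed by higher levels of 10 of the 41 subunit genes in vector cells and lower levels of none by limma. They were Psma1, Psma2, Psma6 and Psma7 of the alpha ring, Psmb7, the base ATPase genes Psmc4 and Psmc5, the lid genes Psmd7 and Psmd12, and Psme3, which encodes the nuclear activator subunit gamma. Their log2 fold changes lay between 0.29 and 0.64. Over all genes 6.82% were called higher and 4.78% lower. At an unadjusted p under 0.05, 17 members were higher and 2 lower (Psmb10 and Psmd5), edgeR called 13 higher and DESeq2 14, and both called 0 lower. These counts too have no share of all genes beside them, and nothing is read from them. The median was 0.20 over the members, against -0.019 over all genes, and in 19 members the NE libraries lay above all unstimulated ones, against 17.6% of all genes. The members ranged from -0.68 to 0.64, none past 1 in size, against 2.63% of all genes. The count fell to 4 without vector unstimulated replicate 1, 5 without replicate 2 or replicate 3 of that group, 2 without vector NE replicate 2 and 4 without vector NE replicate 3. It was 5 under the same total, under quantile normalization and with no filter on low values.

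In tSema4B cells, NE was followed by higher levels of 2 members, Psma1 and Psmd4, and lower levels of none by limma, edgeR or DESeq2. Over all genes 3.68% were called higher and 2.58% lower. At an unadjusted p under 0.05, 12 members were higher and 3 lower (Psmb10, Psme1 and Psmc3). The share of all genes at that cut-off is not given, so nothing is read from these counts. The median was 0.16 over the members, against -0.0048 over all genes. In 15 members the NE libraries were above all unstimulated ones, against 11% of all genes, and no member passed 1 in size (range -0.63 to 0.49), against 2.07% of all genes. The count was 0 without tSema4B unstimulated replicate 2 or tSema4B NE replicate 3, 1 without tSema4B NE replicate 1 or replicate 2, and 0 in a fit of these 6 libraries alone or with no filter on low values. As the interaction called no member, the counts of 10 and 2 do not show that the lines responded differently.

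**Figure D5:**
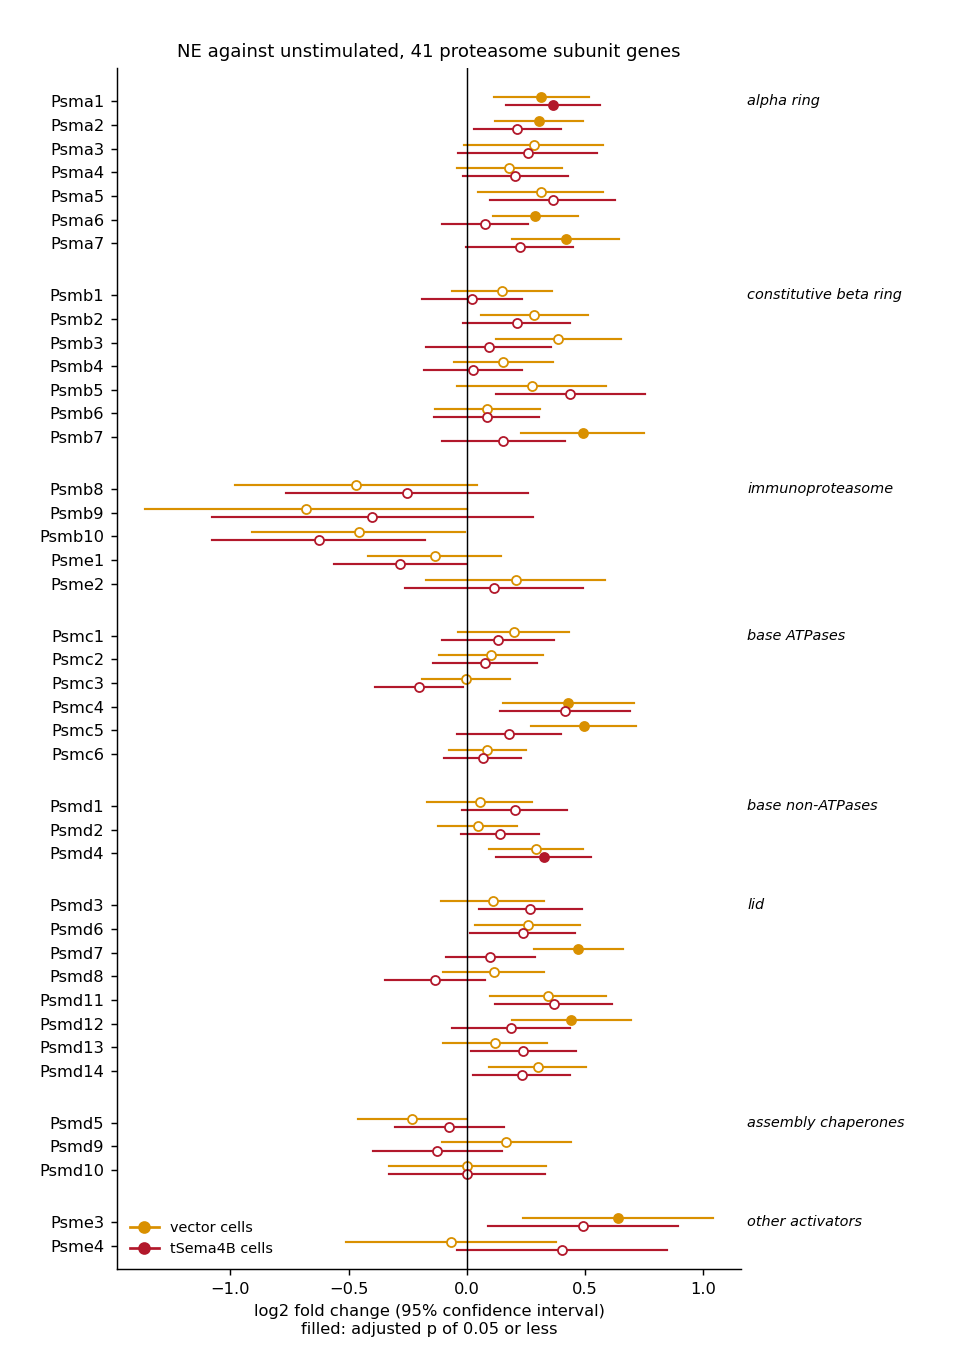
Log2 fold change of NE against unstimulated for the 41 tested subunit genes, in vector cells (yellow) and tSema4B cells (red), with 95% confidence intervals from the limma fit (n = 3 per group). Filled points mark called genes and lie right of 0, while the inducible subunits Psmb8, Psmb9 and Psmb10 lie left of 0 with open points.

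The largest NE values by size among the called genes were those of Psme3, Psmc5 and Psmb7. Psme3 was at 93.4, 107 and 115 normalized counts in vector unstimulated and 161, 150.5 and 181 in vector NE, and at 137, 77.3 and 101 and at 131, 152 and 151 in tSema4B cells. In vector cells the groups were apart by 0.64 ± 0.19 (adjusted p 0.035 by limma), a call that was lost without any 1 of the 6 libraries (adjusted p-values from 0.051 to 0.16). In tSema4B cells they overlapped, with 0.49 ± 0.19 (adjusted p 0.15), and leaving out tSema4B unstimulated replicate 1 gave an adjusted p of 0.042.

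For Psmc5, whose values in every library are given above, NE was followed by a log2 fold change of 0.49 ± 0.11 in vector cells (adjusted p 0.0038 by limma) and of 0.18 ± 0.11 in tSema4B cells (adjusted p 0.37), and the NE libraries lay above the unstimulated ones in either line. Psmd7 had 0.47 ± 0.091 in vector cells (adjusted p 0.0015) and 0.099 ± 0.091 in tSema4B cells (adjusted p 0.60). The calls of Psmc5 and Psmd7 in vector cells were the only ones of the 10 that held under each of 18 alternatives. Psmb7 had 0.49 ± 0.13 in vector cells (adjusted p 0.013), lost without vector unstimulated replicate 1 (0.074) or vector NE replicate 2 (0.087), and 0.16 ± 0.13 in tSema4B cells. Psmc4 had nearly the same value in both lines, 0.43 ± 0.13 (adjusted p 0.038) and 0.415 ± 0.13 (adjusted p 0.068), and its call was lost without any 1 library but vector unstimulated replicate 1 (adjusted p-values from 0.063 to 0.158). Psmd12 had 0.44 ± 0.12 (adjusted p 0.019) in vector cells, lost without vector unstimulated replicate 1 (0.089), vector unstimulated replicate 3 (0.090), vector NE replicate 2 (0.095) or vector NE replicate 3 (0.058), and 0.19 ± 0.12 in tSema4B cells.

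Within the alpha ring all 7 genes had positive NE values in either line, with a median of 0.30 in vector cells and 0.22 in tSema4B cells. The medians over all genes were -0.019 and -0.0048. Psma1 rose in both, by 0.31 ± 0.097 (adjusted p 0.036 by limma) and 0.365 ± 0.097 (adjusted p 0.024). In tSema4B cells its call was lost without tSema4B unstimulated replicate 2 (0.13), tSema4B NE replicate 2 (0.071) or tSema4B NE replicate 3 (0.070), and in vector cells without vector unstimulated replicate 1 (0.11), replicate 2 (0.058) or replicate 3 (0.12), vector NE replicate 2 (0.11) or vector NE replicate 3 (0.16). Psma7 rose by 0.42 ± 0.11 in vector cells (adjusted p 0.014), lost without vector unstimulated replicate 1 (0.091) or vector NE replicate 2 (0.11). Psma2 and Psma6 rose in vector cells by 0.30 ± 0.089 (adjusted p 0.029) and 0.29 ± 0.088 (adjusted p 0.033), of which that of Psma2 was lost without vector unstimulated replicate 2 (0.087) or replicate 3 (0.102) or vector NE replicate 2 (0.114) or replicate 3 (0.126), and that of Psma6 without any 1 of the 6 libraries (0.054 to 0.147). Psmd4, the ubiquitin receptor of the base, was at 504, 566 and 585 normalized counts in tSema4B unstimulated and 742, 633 and 699 in tSema4B NE, a rise of 0.325 ± 0.097 (adjusted p 0.047) lost without tSema4B unstimulated replicate 1 (0.172), tSema4B unstimulated replicate 2 (0.066), tSema4B NE replicate 1 (0.143) or tSema4B NE replicate 3 (0.107). In vector cells it went from 546, 549.9 and 575 to 674, 698 and 676, with 0.29 ± 0.097 (adjusted p 0.052).

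Among the immunoproteasome genes, Psmb8, Psmb9, Psmb10 and Psme1 had negative NE values in either line and Psme2 positive ones, and none of the 5 was called. In vector cells Psmb8, Psmb9 and Psmb10 had -0.47 ± 0.25, -0.68 ± 0.33 and -0.46 ± 0.22 (adjusted p-values from 0.20 to 0.26 by limma). In tSema4B cells they had -0.25 ± 0.25, -0.40 ± 0.33 and -0.63 ± 0.22 (adjusted p-values from 0.093 to 0.63). All NE libraries lay below all unstimulated ones for Psmb9 in vector cells, against 15.7% of all genes, and for Psmb10 and Psme1 in tSema4B cells, against 9.64%. The median of the 5 genes was -0.46 in vector cells and -0.28 in tSema4B cells.

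Other genes of the pathway were taken from a list of 42, all of which were tested. Between the lines without NE, the called genes included Nfe2l2, which encodes a factor of the antioxidant response and was higher in tSema4B cells (log2 fold change 0.31 ± 0.097, adjusted p 0.037 by limma). After NE, 2 were lower, Uchl5, a deubiquitinase bound to the base (-0.65 ± 0.18, adjusted p 0.011), and Psmg4, a chaperone of alpha ring assembly (-0.87 ± 0.29, adjusted p 0.037). Over all genes 5.64% were called higher without NE and 11.2% lower after NE, and nothing is read from these counts of the list. The call of Nfe2l2 was lost without any 1 of its 6 libraries but tSema4B unstimulated replicate 2, that of Psmg4 without any but tSema4B NE replicate 1, and that of Uchl5 without vector NE replicate 2 or tSema4B NE replicate 3, with adjusted p-values of 0.124, 0.112 and 0.0672 at most over all alternatives. Nfe2l1 was not called, with 0.22 ± 0.12 without NE and 0.10 ± 0.12 with NE. The median of the list was -0.042 and -0.10 in the conditions without and with NE.

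With NE in vector cells, 1 gene of the list was higher, the shuttle gene Rad23b (0.42 ± 0.14, adjusted p 0.0498 by limma). The 2 that were lower were Ngly1, which encodes the glycanase that acts on the factor of Nfe2l1 (-0.70 ± 0.17, adjusted p 0.0076), and Tapbp of the peptide loading complex (-0.29 ± 0.094, adjusted p 0.045). Over all genes 6.82% were called higher and 4.78% lower, and nothing is read from the counts of 1 and 2 of 42. Ngly1 held under each of 18 alternatives, and Rad23b and Tapbp were each lost without any 1 of the 6 libraries but vector unstimulated replicate 3 (adjusted p up to 0.214 and 0.176 over all alternatives). In tSema4B cells limma called 0 of the 42 after NE, with 3 higher and 1 lower at an unadjusted p under 0.05. Over all genes limma called 3.68% higher and 2.58% lower, and nothing is read from these counts. Irf1, which encodes a transcription factor of the interferon response, and Tap1, which encodes a peptide transporter of antigen presentation, were called in none of the 4 comparisons. Irf1 had 0.23 ± 0.13 and 0.32 ± 0.13 between the lines without and with NE, and Tap1 -0.25 ± 0.29 and -0.10 ± 0.29. After NE, Irf1 was called between the lines under the same total and without tSema4B NE replicate 3 (lowest adjusted p 0.027).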

How the data were processed

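RNA had been sequenced from 12 libraries of brown adipocytes, 3 in each of 4 groups. Per the study's methods, libraries were made with SMART-Seq and Nextera XT chemistry and sequenced single-end. The submitters' processing notes name STAR 2.7.9a, HTSeq, DESeq2 and the builds mm10 and GRCm38.p4, and the strand setting and gene annotation are not given in the sources used here. The authors deposited a signal for each gene, its read count divided by the size factor of the library (normalized counts). All 12 columns were matched to samples by their labels, and 0 were left unmapped. Whole reads were recovered from the steps between low values (100% of values whole within 0.01), which gave the depth of each library.

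CPM values were computed from the recovered reads. Normalized counts were tested as log2(value + 1) with limma 3.58.1 in R 4.3.3, in 1 fit over the 4 groups, for the 11998 genes that reached 10 normalized counts in 3 or more libraries. Fold changes are on that scale, which understates those of low genes. Adjusted p-values are Benjamini-Hochberg over all genes tested, with 0.05 as threshold. The alternatives were other pseudocounts, filters and scalings, edgeR 4.0.16 and DESeq2 1.42.0 on the recovered counts, reads thinned to the shallowest library, a fit restricted to the groups being compared, a block for replicate number, and each library left out in turn. Summing Psme2 with its copy Psme2b was added after seeing the data. The scripts were tested on simulated data.

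Members, classes and gene lists were chosen with earlier results of these data known. Values in every library are given for Psmb5 to Psmb10, Psme1 and Psme2 and for the 3 called members with the largest log2 fold change in each comparison and direction. Psmd7 and the class ratio were added after seeing the data. Gene positions are from GENCODE M21 on GRCm38. Same-numbered libraries of different groups did not deviate together (correlation from -0.047 to 0.028 over 18 pairs). Some genes of the pathway and marker lists are not reported here by name.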

Additional observations from a re-analysis of the deposited data

Results flagged for a closer look

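Psmd7 was marked out because its tSema4B libraries lay on opposite sides of the vector libraries in the 2 conditions, above them without NE and below them after NE. The log2 fold change of tSema4B against vector was 0.18 without NE and -0.195 with NE. The difference between them was -0.373 on the log2 scale, with an unadjusted p of 0.0081 and an adjusted p of 0.293 by limma over all 11998 genes. It did not pass the threshold, and it was called by neither edgeR nor DESeq2.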

How the results depend on the processing

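Of 3888 values of single members under the alternatives, 3712 kept their side of the threshold, 143 lost a call, 33 gained one and 0 reversed; values called in neither fit were given no direction. The calls that held under every alternative were Psma1 and Psma2 between the lines without NE, Psma1, Psma2, Psma6, Psma7, Psmb7 and Psmd8 with NE, and Psmc5 and Psmd7 for NE in vector cells, and for NE in tSema4B cells there were 0. With 1 library left out, the count of members lower in tSema4B cells without NE (7) ran from 3 to 8, that with NE (13) from 6 to 11, the count higher after NE in vector cells (10) from 2 to 7, and that in tSema4B cells (2) from 0 to 3. With no filter on low values the count lower with NE was 8, and the counts higher after NE were 5 in vector cells and 0 in tSema4B cells. With the same total in every library the count lower with NE was 7, the count higher with NE was 1, and that higher after NE in vector cells was 5. Under quantile normalization these were 8, 1 and 5, and the count higher after NE in tSema4B cells was 1. That count was also 1 with thinned reads and 0 in a fit of 6 libraries only. With the replicate block the counts were 7, 11, 10 and 2, and since same-numbered libraries share only a number, a call lost under it is not read as a weaker effect. Over all genes, DESeq2 called 34 genes with a positive and 67 with a negative interaction, against 3 and 0 by limma, and the cause was not tested. Over all genes the count lower after NE in vector cells (574) was 879 in a fit of 6 libraries only, and the counts higher and lower after NE in tSema4B cells (441 and 309) were 230 and 152. The fewest reads of a tested member in a library were 16, for Psmb9.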
